A study of Danio rerio with 16 samples.

Results

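Zebrafish embryos lacking lipf and pla2g15 were compared with wild-type embryos at 24 hours post fertilisation (hpf) by bulk RNA sequencing. The 8 libraries of this age were taken by their labels from the 16 of the series, the other 8 (mut48 and sib48) being 48 hpf embryos of the same genotypes. The first group, mut24, held 4 libraries of lipf,pla2g15 knockout embryos made by CRISPR/Cas9. The second group, sib24, held 4 libraries of WT embryos with no treatment, labelled sib. The labels give the tissue as "body", whereas the design text speaks of whole embryos. How many embryos were pooled, which alleles they carried and their strain were not stated in the labels. The labels do not tie the libraries to clutches, so p-values reflect the spread among 4 libraries a group and that spread may be technical.

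Before it feeds, a zebrafish embryo lives on its yolk. The yolk syncytial layer, a nucleated layer on the yolk surface, breaks down stored lipid and exports it in lipoproteins built on apolipoprotein B. In mammals LIPF is the gastric lipase, an acid lipase of the stomach that cuts triglycerides, and PLA2G15 is the lysosomal phospholipase that removes a fatty acid from phospholipids at acid pH. The title of the series links these genes to yolk lipid mobilisation, to the transcription factor Hnf4 and to growth, and the comparison asks which transcripts differed when both genes were disrupted.

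Libraries held 35851808 to 50462333 counts in mut24 and 39147365 to 39927647 counts in sib24. Of 49 tissue markers in the file, 46 had reads in all 8 libraries, among them those of muscle, skin, neurons, blood, heart, notochord and vessels. The exceptions were apoa4b.2, lyz and crygm2d1, each at 0 in at least 1 library. Values below are CPM, counts scaled to library size with TMM factors. The 8 libraries differed widely in yolk genes, and that difference ran within both genotypes. The gene apobb.1, which encodes an apolipoprotein B, had 1673, 30.1, 1158 and 20.9 CPM in mut24 against 173, 819, 1549 and 35.1 CPM in sib24. Replicates 1 and 3 of mut24 and replicates 2 and 3 of sib24 were high, replicate 1 of sib24 was intermediate, and replicates 2 and 4 of mut24 and replicate 4 of sib24 were low. The summed level of 22 yolk syncytial layer genes ran from 523 to 6632 CPM in mut24 and from 678 to 5751 CPM in sib24. In bulk samples fewer cells of a type and less RNA per cell cannot be told apart. This axis took the first principal component (31.0% of the variance), and the second (17.9%) parted the genotypes. Results are therefore also given without the 2 libraries per group lowest in yolk genes (mut24 replicates 2 and 4, sib24 replicates 1 and 4) and without the 2 highest.

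**Figure D1:**
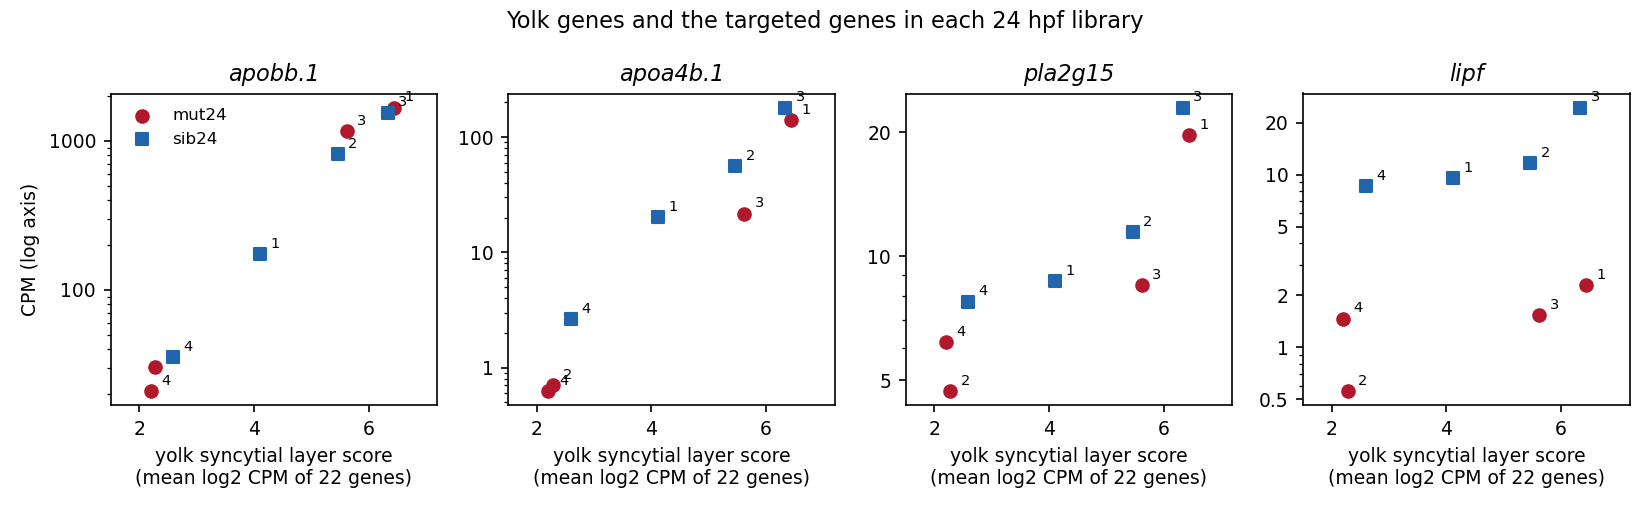
CPM of the apolipoprotein genes apobb.1 and apoa4b.1 and of the targeted genes pla2g15 and lipf (log axes) against the yolk syncytial layer score, the mean log2 CPM of 22 genes; each point is 1 library with its replicate number, circles mut24 and squares sib24. In each group the apolipoprotein genes and pla2g15 are highest in the library with the highest score, and lipf is at 2.28 CPM or less in each mut24 library and at 8.56 CPM or more in each sib24 library.

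The targeted gene lipf had 2.28, 0.557, 1.54 and 1.46 CPM in mut24 against 9.5, 11.6, 24.4 and 8.56 CPM in sib24. Every mut24 library was below every sib24 library, and the highest sib24 value was that of replicate 3, which was also high in yolk genes. It was 9.28-fold lower (log2 fold change -3.21, SE 0.43, edgeR adjusted p = 0.0119), over 239 reads in mut24 and 2155 in sib24. The call was lost without mut24 replicate 3 (adjusted p = 0.0611) and held without any 1 of the other 7 libraries. It was also lost without the 2 libraries per group lowest in yolk genes. The transcript of pla2g15 had 19.7, 4.71, 8.51 and 6.18 CPM in mut24 against 8.7, 11.4, 22.9 and 7.76 CPM in sib24. The groups overlapped, and the 2 highest values belonged to mut24 replicate 1 and sib24 replicate 3, the libraries highest in yolk genes. Its log2 fold change was -0.38 (SE 0.45, edgeR adjusted p = 0.763), and without sib24 replicate 3 it was 0.06. The level of pla2g15 is no check of genotype, since a CRISPR lesion can leave transcript abundance unaltered. None of the other 10 tested members of the acid lipase and lysosomal phospholipase list was called.

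Across all genes the share called in this fit was small. Of 22136 genes tested, 128 were called at an edgeR adjusted p under 0.05, which is 0.578% of them. Of these, 64 were higher in mut24 (0.289%) and 64 lower (0.289%). For each of the 128, every mut24 library lay on the same side of every sib24 library, as it did above for 4.6% and below for 4.48% of all genes tested. The median change was 1.59-fold among the higher genes and 1.58-fold among the lower, and 17 higher and 15 lower genes reached 2-fold. The median log2 fold change of all tested genes was 0.00, and 3185 genes had an unadjusted p under 0.05. Both counts depended on single libraries. Without mut24 replicate 1, 30 genes were higher and 34 lower, dropping mut24 replicate 2 left 10 and 15, and dropping mut24 replicate 3 left 15 and 15. Among the wild type, dropping replicate 1 left 15 and 18, dropping replicate 2 left 29 and 20, and dropping replicate 4 left 18 and 21. The counts changed less without mut24 replicate 4, at 46 and 47, and without sib24 replicate 3 they were 95 and 60. All 128 genes kept their direction in each of these fits, which groups that do not overlap made nearly certain beforehand. Of the 128, 22 were called whichever library was left out. Without the 4 libraries lowest in yolk genes 2 higher and 7 lower genes were called, and without the 4 highest 385 and 188.

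**Figure D2:**
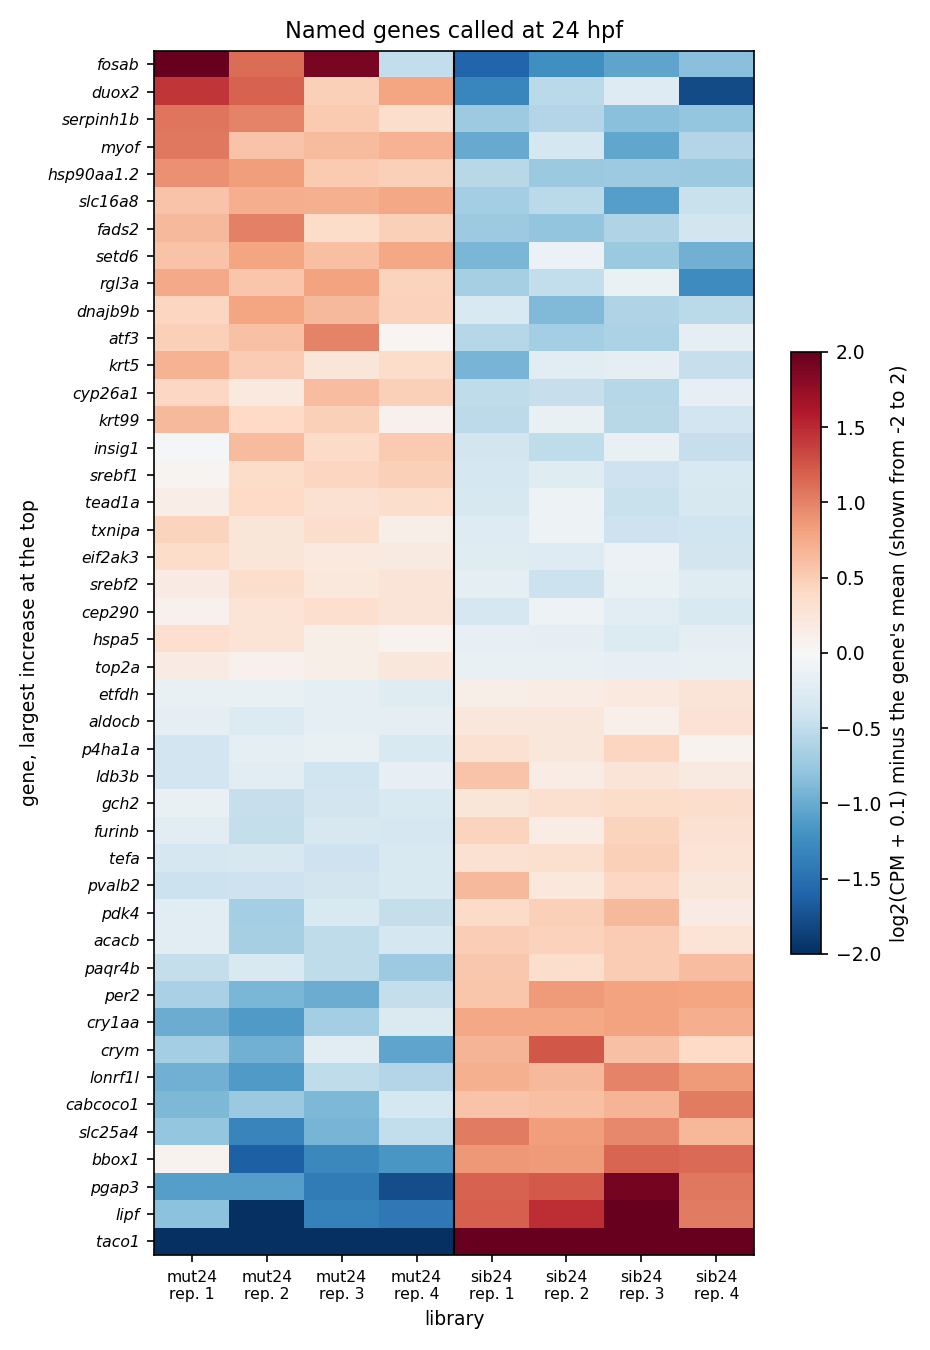
Named genes called at 24 hpf (rows, largest increase at the top) in the 4 mut24 and 4 sib24 libraries (columns); colour is log2(CPM + 0.1) minus the mean of the gene over the 8 libraries, shown from -2 to 2. For each gene the mut24 libraries all lie on the same side of the sib24 libraries, with taco1, lipf and pgap3 showing the deepest falls and fosab and duox2 the largest and least even increases.

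Clock and light-response genes gave the most called members of any list. Of 44 tested clock genes, 7 were lower in mut24 and 0 higher, 12 had a positive and 32 a negative log2 fold change, and the median was -0.13, beside 0.00 over all genes. Over all genes tested 0.289% were called higher and 0.289% lower, the shares to hold beside the called counts of this and each later list. The period gene per2 encodes a repressor of the clock that light induces in zebrafish. It had 10.51, 8.75, 8.26 and 11.9 CPM in mut24 against 24.3, 30, 29 and 28.7 CPM in sib24. The mut24 range stopped at 11.9 CPM and the sib24 range began at 24.3 CPM, and per2 was 2.84-fold lower (log2 fold change -1.51, SE 0.13, edgeR adjusted p = 0.00103). The cryptochrome gene cry1aa, whose product represses Clock and Bmal, had 10.22, 9.34, 12.7 and 16.8 CPM in mut24 against 35.3, 35.1, 36 and 34.1 CPM in sib24. Its sib24 values lay close together and its mut24 values were spread more widely, without overlap, and it was 2.85-fold lower (log2 fold change -1.51, SE 0.16, edgeR adjusted p = 0.00378). The transcription factor gene tefa had 73.2, 73.8, 69.1 and 74.2 CPM in mut24 against 114, 115, 128 and 112 CPM in sib24, again with tight, separate groups, and was 1.61-fold lower (log2 fold change -0.69, SE 0.06, edgeR adjusted p = 0.00111). The other called members were cry-dash, 1.87-fold (adjusted p = 0.00372) lower by edgeR, cry1bb, 1.91-fold (adjusted p = 0.0108), per3, 1.78-fold (adjusted p = 0.0201), and cry5, the photolyase-like cryptochrome gene, 2.06-fold (adjusted p = 0.0385). Genes outside the list that were also lower included lonrf1l, a LON-domain RING finger gene, which had 12.5, 11.1, 17.2 and 16.2 CPM in mut24 against 40.2, 38.3, 48.7 and 44.1 CPM in sib24 and was 3-fold lower (log2 fold change -1.59, SE 0.14, edgeR adjusted p = 0.00111). Its relative lonrf1 was 1.77-fold (adjusted p = 0.0465) lower and ddb2, which encodes a sensor of ultraviolet DNA damage, 1.57-fold (adjusted p = 0.0379) lower by edgeR; both were chosen after their values were seen.

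The core activators of the clock were not called, nor were per1b (log2 fold change -0.49) and cry1ab (-0.78). Leaving out 1 library gave 4 to 7 called clock genes: 4 without mut24 replicate 2, and 5 without mut24 replicate 3 or without sib24 replicate 1, 2 or 4. Genes per2, cry1aa, cry-dash, tefa and lonrf1l were called in each of the 8 fits, whereas cry1bb, per3, cry5, lonrf1 and ddb2 were lost in at least 1. In the fit of all 16 libraries, whose spread includes the 48 hpf groups, 4 clock genes were called and per2, cry1aa and lonrf1l were not. Without the libraries lowest in yolk genes 2 were lower and 0 higher, and without the highest 5 were lower and 1 higher. Calls of tefa and lonrf1l were lost without the lowest.

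In the heat shock list the called genes were higher in mut24, led by hsp90aa1.2 and serpinh1b. The gene hsp90aa1.2, an inducible Hsp90 chaperone gene, had 131, 125, 101 and 96.7 CPM in mut24 against 47.6, 41.5, 42.1 and 41.7 CPM in sib24. The groups were separated by a wide gap, mut24 replicates 1 and 2 being the highest, and it was 2.62-fold higher (log2 fold change 1.39, SE 0.10, edgeR adjusted p = 0.000567). The collagen chaperone gene serpinh1b (Hsp47) had 353, 334, 242 and 215 CPM in mut24 against 102, 112, 95 and 98.7 CPM in sib24. Again mut24 replicates 1 and 2 were highest and the groups did not overlap, and it was 2.8-fold higher (log2 fold change 1.49, SE 0.15, edgeR adjusted p = 0.00256). With serpinh1a (1.31-fold (adjusted p = 0.0393) higher by edgeR), 3 of 33 tested heat shock genes were higher and 0 lower, with a median of 0.05. The Hsp90 cochaperone gene chordc1a, on no list, was 2.04-fold (adjusted p = 0.00763) higher by edgeR. In the opposite direction dnajc9, a DnaJ-family gene on chromosome 12 and on no list, was 1.37-fold (adjusted p = 0.0385) lower by edgeR; chordc1a and dnajc9 were chosen after their values were seen. The classic stress-inducible genes hsp70.1 and hsp70.3 had log2 fold changes of 0.84 and 0.65 and did not pass (edgeR adjusted p = 0.47 and 0.288). In each fit with 1 library left out, 2 heat shock genes were called, serpinh1a being the member lost. The call of serpinh1b was lost without the 2 libraries per group lowest in yolk genes.

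In the endoplasmic reticulum list, 2 of 34 tested members were higher and 0 lower. Positive values were found for 31 of them, and the median was 0.19. In 14 of the 34 every mut24 library was above every sib24 library, beside 4.6% of all genes. The main chaperone of that compartment, BiP, is encoded by hspa5, which had 443, 423, 379 and 367 CPM in mut24 against 311, 304, 290.1 and 308 CPM in sib24. The lowest mut24 library was above the highest of sib24, and it was 1.33-fold higher (log2 fold change 0.41, SE 0.07, edgeR adjusted p = 0.0373). Its cochaperone gene dnajb9b averaged 2.6 ± 0.327 CPM in mut24 and 1.11 ± 0.196 CPM in sib24 (SD, n = 4 each) and was 2.33-fold higher (log2 fold change 1.22, SE 0.22, edgeR adjusted p = 0.0385). The kinase PERK, which senses unfolded proteins and phosphorylates eIF2 alpha, is encoded by eif2ak3, which averaged 42.8 ± 2.54 CPM in mut24 and 30.3 ± 2.23 CPM in sib24 (SD, n = 4 each) and was 1.41-fold higher (log2 fold change 0.50, SE 0.07, edgeR adjusted p = 0.0223). The stress transcription factor gene atf3 averaged 12.6 ± 3.39 CPM in mut24 and 5.93 ± 0.976 CPM in sib24 (SD, n = 4 each) and was 2.12-fold higher (log2 fold change 1.08, SE 0.20, edgeR adjusted p = 0.0406). Only eif2ak3 and atf3 were called among 33 integrated stress response genes, whose median was 0.05. The members herpud1 and dnajc3a, which serve degradation and repair in the same compartment, had log2 fold changes of 0.46 and 0.57 and did not pass (edgeR adjusted p = 0.0644 and 0.0738).

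Of 33 immediate early genes, fosab and atf3 were higher and none lower, with a median of 0.31. The AP-1 gene fosab had 7.82, 3.72, 6.4 and 1.15 CPM in mut24 against 0.485, 0.65, 0.741 and 0.877 CPM in sib24. Replicates 1 and 3 of mut24 were far above the rest and replicate 4 of mut24 was close to sib24, and fosab was 6.88-fold higher (log2 fold change 2.78, SE 0.50, edgeR adjusted p = 0.0401). Without mut24 replicate 4, 5 of the immediate early genes were called, and without any 1 of the other 7 libraries 0. The calls of hspa5, atf3 and fosab held only without mut24 replicate 4 and otherwise rose to adjusted p of up to 0.142, 0.142 and 0.136. That of dnajb9b was lost without any 1 library (0.0583 to 0.142). That of eif2ak3 held without mut24 replicate 1 or 4 or sib24 replicate 3 and was lost without each other library (up to 0.0939). The endoplasmic reticulum list had 1 called gene without mut24 replicate 4 and 0 without any other library, and the integrated stress response list had 1 without mut24 replicate 1 or sib24 replicate 3 and 0 without mut24 replicate 2 or 3 or sib24 replicate 1, 2 or 4. Without the libraries lowest in yolk genes the heat shock, endoplasmic reticulum, integrated stress response and immediate early lists had 1, 0, 0 and 1 called genes, and without the highest 2, 1, 1 and 1. None of hspa5, dnajb9b, atf3 and fosab was called without the highest. The endoplasmic reticulum and immediate early genes called there were therefore not among those called with all 8 libraries.

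Of the lipid synthesis lists, 3 of 30 sterol genes and 2 of 31 fatty acid and triglyceride genes were called higher, and each of these 5 calls was lost in at least 1 fit with a library left out. The transcription factor gene srebf2, which drives cholesterol synthesis, averaged 72.5 ± 4.02 CPM in mut24 and 51.5 ± 4.39 CPM in sib24 (SD, n = 4 each). The groups did not overlap and srebf2 was 1.41-fold higher (log2 fold change 0.49, SE 0.07, edgeR adjusted p = 0.0223). The gene insig1, a sterol-sensing brake on Srebf processing that Srebf itself induces, had 30.3, 47.8, 40 and 44.3 CPM in mut24 against 23.8, 21.7, 27.8 and 22.3 CPM in sib24. Replicate 1 of mut24 was the lowest of its group and nearest to sib24, and insig1 was 1.7-fold higher (log2 fold change 0.77, SE 0.13, edgeR adjusted p = 0.0385). The sterol demethylase gene cyp51 was 2.16-fold higher (log2 fold change 1.11, SE 0.20, edgeR adjusted p = 0.0385). Together 3 of 30 sterol genes were higher and 0 lower, 27 of the 30 had a positive value, and the median was 0.27. In 10 of the 30 the groups did not overlap, with mut24 above (4.6% of all genes), and in 0 with mut24 below (4.48%). Among those that did not pass were ldlrb, sqlea and hmgcra, with log2 fold changes of 0.61, 0.75 and 0.60 (edgeR adjusted p = 0.0881, 0.259 and 0.463).

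Fatty acid and triglyceride synthesis had 2 higher members and 1 lower of 31 tested, with a median of 0.04. The gene srebf1, the master regulator of fatty acid synthesis, had 90.4, 113, 118 and 122 CPM in mut24 against 68.6, 73.6, 65.3 and 70.9 CPM in sib24. All mut24 libraries were above all sib24 libraries, and srebf1 was 1.59-fold higher (log2 fold change 0.67, SE 0.09, edgeR adjusted p = 0.0119). The desaturase gene fads2 was rare, at 2.07 ± 0.439 CPM in mut24 and 0.809 ± 0.124 CPM in sib24 (SD, n = 4 each), and was 2.55-fold higher (log2 fold change 1.35, SE 0.25, edgeR adjusted p = 0.0411). It lies on chromosome 25 with pla2g15, and the part of that position in its difference was not tested. In the opposite direction, acacb had 35.8, 26.3, 29.2 and 32.4 CPM in mut24 against 58.5, 57, 59.1 and 50.1 CPM in sib24. It encodes the acetyl-CoA carboxylase whose product, malonyl-CoA, restrains mitochondrial fatty acid uptake in mammals. The groups were clearly apart and acacb was 1.82-fold lower (log2 fold change -0.86, SE 0.10, edgeR adjusted p = 0.0047). The cytosolic counterpart acaca had a log2 fold change of 0.45 and was not called (edgeR adjusted p = 0.0865).

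The list of fatty acid oxidation genes and Ppar targets contributed 4 lower genes and 0 higher of 50 tested, with a median of -0.04. The kinase gene pdk4, whose product shuts off pyruvate oxidation, had 9.94, 7.08, 9.3 and 8.21 CPM in mut24 against 15, 16, 18 and 12.8 CPM in sib24. Every mut24 value was below every sib24 value, and pdk4 was 1.79-fold lower (log2 fold change -0.84, SE 0.14, edgeR adjusted p = 0.037). The last enzyme of carnitine synthesis is encoded by bbox1, which had 1.54, 0.405, 0.546 and 0.604 CPM in mut24 against 2.76, 2.73, 3.41 and 3.35 CPM in sib24. Replicate 1 of mut24 was well above the other 3 of its group yet below all of sib24, and bbox1 was 3.99-fold lower (log2 fold change -1.99, SE 0.38, edgeR adjusted p = 0.0473). The electron carrier gene etfdh averaged 46.5 ± 1.48 CPM in mut24 and 59.6 ± 2.5 CPM in sib24 (SD, n = 4 each) and was 1.28-fold lower (log2 fold change -0.36, SE 0.06, edgeR adjusted p = 0.0316). The trifunctional protein gene hadhaa was 1.59-fold (adjusted p = 0.0429) lower by edgeR. The carnitine palmitoyltransferase genes cpt1ab and cpt1b had log2 fold changes of -1.48 and -1.76 with groups that did not overlap, and did not pass (edgeR adjusted p = 0.0722 and 0.0876).

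Of these lipid genes only acacb was called in each fit with 1 library left out. The call of srebf1 was lost without mut24 replicate 2 or 3 or sib24 replicate 1 (adjusted p up to 0.067), and that of srebf2 without these or without sib24 replicate 2 or 4 (up to 0.0939). That of insig1 held only without mut24 replicate 1 or sib24 replicate 3 (otherwise up to 0.142), that of pdk4 only without mut24 replicate 1 or sib24 replicate 4 (up to 0.116), that of bbox1 only without mut24 replicate 1 (up to 0.15) and that of etfdh only without sib24 replicate 3 (up to 0.102), while fads2 was lost in all 8 fits (0.0637 to 0.146). The oxidation list had 5 lower genes without mut24 replicate 1, 1 without sib24 replicate 3 or 4, and 0 without any 1 of the other 5 libraries. Sterol genes numbered 2 or 3 without mut24 replicate 1 or 4 or sib24 replicate 3, and 0 without any 1 of the others. Higher fatty acid synthesis genes numbered 1 without mut24 replicate 1 or 4 or sib24 replicate 2 or 4, and 0 without mut24 replicate 2 or 3 or sib24 replicate 1. With the libraries lowest in yolk genes left out, none of these lists kept a called member. With the highest left out 3 sterol genes were higher and 11 members of the oxidation list lower.

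Yolk and lipoprotein genes themselves gave no call in the fit of the 8 libraries without a covariate. None of 22 yolk syncytial layer markers, 28 genes of lipoprotein assembly, lipases and transfer proteins, 22 plasma protein genes and 22 genes of Hnf4 and other endoderm factors was called. Their medians were 0.15, 0.07, 0.32 and 0.12. Without the libraries highest in yolk genes they were -1.63, -0.51, -1.36 and 0.09. That fit called 4 yolk markers lower, 3 lipoprotein genes higher and 3 lower. Without the lowest the medians were 0.25, 0.14, 0.43 and 0.13, with 0 called in any of these lists. With the yolk score, itself the mean of these markers, as a covariate 1 yolk marker was higher and 1 lower. That fit also called 2 lipoprotein genes higher and 1 lower, and 3 plasma protein genes higher. The gene apobb.1 averaged 721 ± 829.6 CPM in mut24 and 644 ± 694 CPM in sib24 (SD, n = 4 each), an SD as large as the difference between groups or larger, and hnf4a had a log2 fold change of 0.54 (edgeR adjusted p = 0.534). Differences of the size of the spread in these genes were not detectable with 4 libraries a group. Of 53 lysosomal genes 0 were called, 44 had a positive value and the median was 0.17. The lysosomal genes nearest to the threshold were slc17a5 and lamp1a, at 0.46 and 0.27 (edgeR adjusted p = 0.116 and 0.118). Of 22 proton pump subunits and 28 autophagy genes 0 were called, with medians of 0.05 and 0.02. With the yolk score as a covariate 7 lysosomal genes were higher and 1 proton pump gene lower. Leaving out the libraries highest or lowest in yolk genes gave 0 called lysosomal genes.

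**Figure D3:**
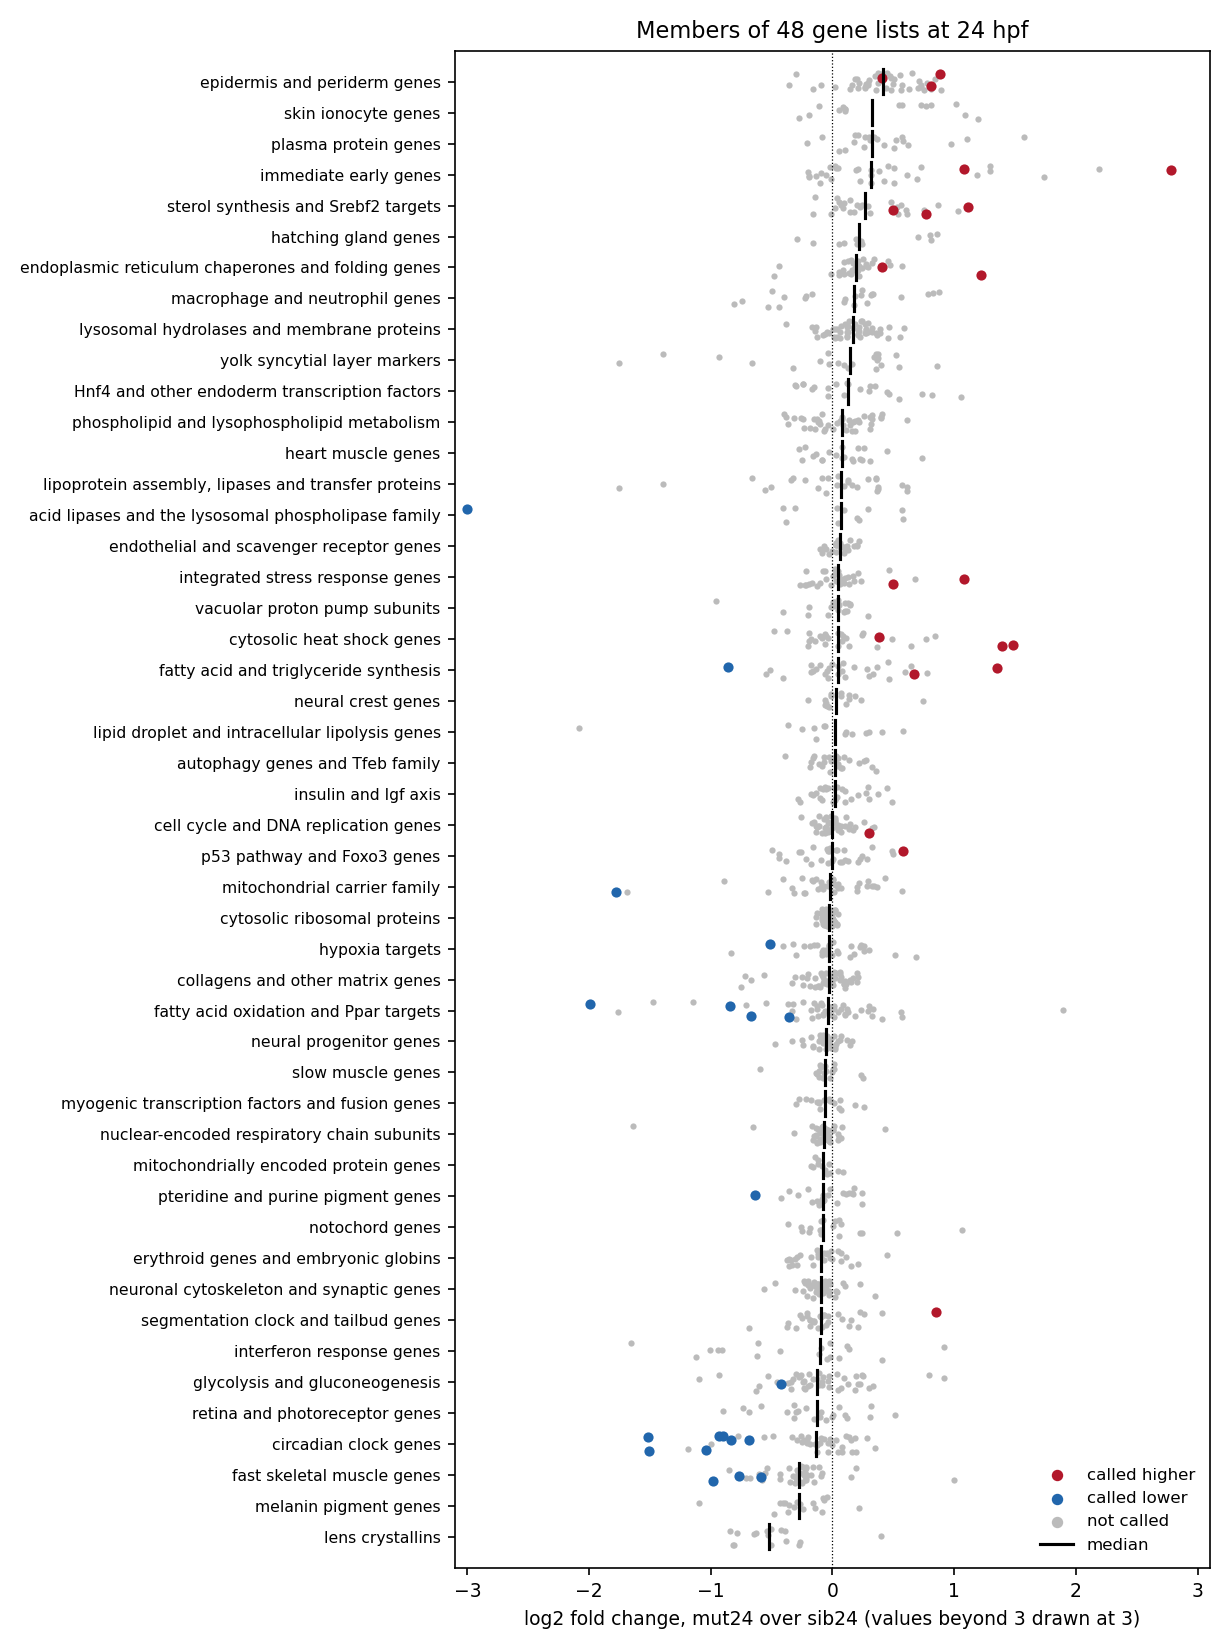
Log2 fold change (mut24 over sib24) of the members of 48 gene lists, ordered by median; each point is 1 gene, large points are called genes and black bars are medians, with values beyond 3 drawn at 3. Epidermis has the highest median (0.41) and lens crystallins the lowest (-0.52), while most lists centre near 0; 30 of the lists hold no called gene.

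In the skin list the called genes were higher in mut24. Of 47 epidermis and periderm genes 3 were called higher and 0 lower, 43 had a positive value, and the median was 0.41. In 15 of the 47 every mut24 library was above every sib24 library, beside 4.6% of all genes. The keratin gene krt5 had 3992, 3485, 2914 and 3169 CPM in mut24 against 1288, 2112, 2149.6 and 1791 CPM in sib24. The lowest mut24 library was above the highest of sib24, sib24 replicate 1 was lowest of all, and krt5 was 1.85-fold higher (log2 fold change 0.89, SE 0.15, edgeR adjusted p = 0.0379). The keratin gene krt99 had 72.4, 61.3, 64.7 and 49.1 CPM in mut24 against 32.3, 41.8, 31.6 and 35.5 CPM in sib24, without overlap, and was 1.75-fold higher (log2 fold change 0.81, SE 0.12, edgeR adjusted p = 0.023). The third called member, krt18a.1, was 1.32-fold (adjusted p = 0.0433) higher by edgeR. Other keratins such as krt92 and krt17 had log2 fold changes of 0.84 and 0.89 and did not pass (edgeR adjusted p = 0.0537 and 0.103). The summed level of the list was 21622 to 29473 CPM in mut24 and 12756 to 20171 CPM in sib24. The call of krt5 held only without sib24 replicate 1 or 3 (otherwise adjusted p up to 0.137), and that of krt99 was lost without mut24 replicate 2 or 3 or sib24 replicate 1 or 4 (up to 0.0935). The list had 9 called genes without sib24 replicate 3, 1 without mut24 replicate 1 or sib24 replicate 1 or 2, and 0 without mut24 replicate 2 or 3 or sib24 replicate 4. It had 23 with the yolk score as a covariate, 25 without the libraries highest in yolk genes and 0 without the lowest.

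In the fast muscle list the called genes were lower in mut24. Of 46 tested 3 were called lower and 0 higher, 43 had a negative value, and the median was -0.28. In 16 of the 46 every mut24 library was below every sib24 library, beside 4.48% of all genes. The gene pvalb2 encodes a parvalbumin, the calcium buffer that lets fast fibres relax, and had 148, 149.6, 153 and 161 CPM in mut24 against 312, 229.8, 265 and 232 CPM in sib24. The mut24 libraries lay close together, all below sib24, and pvalb2 was 1.7-fold lower (log2 fold change -0.76, SE 0.09, edgeR adjusted p = 0.00767). The Z-disc gene ldb3b had 66.9, 74.3, 66.2 and 77.8 CPM in mut24 against 129, 96.3, 104 and 99 CPM in sib24, without overlap, and was 1.5-fold lower (log2 fold change -0.58, SE 0.10, edgeR adjusted p = 0.0354). The parvalbumin gene pvalb1 was 1.97-fold (adjusted p = 0.0385) lower by edgeR. The creatine kinase gene ckma and the troponin gene tnnt3a had log2 fold changes of -0.31 and -0.61 and did not pass (edgeR adjusted p = 0.174 and 0.127). The summed level of fast muscle genes was 20862 to 23924 CPM in mut24 and 24501 to 32304 CPM in sib24, whereas their mean log2 CPM, in which each gene weighs the same, overlapped, at 6.86 to 7.07 in mut24 and 7.06 to 7.55 in sib24. Of the 3 called muscle genes, pvalb2 and ldb3b lie on chromosome 12 with lipf and pvalb1 on chromosome 3; the part of that position in the muscle difference was not tested. The aldolase gene aldocb, the only called member of 47 glycolysis genes, averaged 36.3 ± 1.1 CPM in mut24 and 48.8 ± 2.63 CPM in sib24 (SD, n = 4 each) and was 1.34-fold lower (log2 fold change -0.43, SE 0.06, edgeR adjusted p = 0.0198); the part of the muscle difference in it was not tested. The gene p4ha1a, a collagen prolyl hydroxylase gene and the only called hypoxia target of 31, averaged 46.2 ± 3.6 CPM in mut24 and 66.1 ± 6.81 CPM in sib24 (SD, n = 4 each) and was 1.43-fold lower (log2 fold change -0.52, SE 0.09, edgeR adjusted p = 0.0368). The call of pvalb2 held in all 8 fits with 1 library left out. That of ldb3b held only without mut24 replicate 4 or sib24 replicate 3 (otherwise up to 0.113), that of aldocb only without these or mut24 replicate 1 (up to 0.0935), and that of p4ha1a only without sib24 replicate 3 or 4 (up to 0.107). The muscle list had 1 called gene without mut24 replicate 1, 2 or 3 or sib24 replicate 1 or 2. It had 2 without the libraries lowest in yolk genes and 6 without the highest. Neither pvalb2 nor ldb3b was called without the lowest, so the 2 are not these genes.

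Among pigment genes 1 was called, and among lens genes 0. The GTP cyclohydrolase gene gch2, which starts pteridine pigment synthesis, had 115, 92.2, 98.4 and 103 CPM in mut24 against 151, 159, 164 and 163 CPM in sib24. Its groups lay far apart relative to their spread and it was 1.56-fold lower (log2 fold change -0.64, SE 0.07, edgeR adjusted p = 0.0047), the only called member of 24 pteridine and purine genes. Of 18 melanin genes 0 were called and 17 had a negative value (median -0.28), and of 16 lens crystallins 0 were called and 15 had a negative value (median -0.52). The summed melanin gene level did not overlap, at 254.8 to 305 CPM in mut24 and 326 to 344 CPM in sib24, and that of the lens did, at 44.3 to 73.1 CPM in mut24 and 53.7 to 106 CPM in sib24. The adenine nucleotide carrier gene slc25a4 was the only called member of 40 mitochondrial carrier genes, and had 1.88, 1.27, 1.69 and 2.32 CPM in mut24 against 6.89, 5.95, 6.52 and 5.29 CPM in sib24. No mut24 library exceeded 2.32 CPM and no sib24 library was below 5.29 CPM, and slc25a4 was 3.43-fold lower (log2 fold change -1.78, SE 0.20, edgeR adjusted p = 0.0047). Calls of gch2 and slc25a4 held whichever library was left out, and both were lost without the 2 libraries per group lowest in yolk genes. Of 50 nuclear and 12 mitochondrial genes on the respiratory chain lists 0 were called, with medians of -0.07 and -0.07. The gene ndufa4, named as a respiratory chain subunit gene but on neither list, was called lower (log2 fold change -1.27, edgeR adjusted p = 0.037). It lies on chromosome 12 with lipf and was also lower at 48 hpf (-1.38, edgeR adjusted p = 0.000625).

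The cell cycle, tailbud and p53 and Foxo lists gave 1 call each, and of 29 genes of the insulin and Igf axis 0 were called, with a median of 0.02. The topoisomerase gene top2a, which untangles replicated DNA, averaged 648 ± 28.2 CPM in mut24 and 526 ± 2.85 CPM in sib24 (SD, n = 4 each) and was 1.23-fold higher (log2 fold change 0.30, SE 0.05, edgeR adjusted p = 0.0385), the only called member of 46 cell cycle genes. The retinoic acid hydroxylase gene cyp26a1, active in the tailbud, averaged 28.2 ± 3.42 CPM in mut24 and 15.7 ± 2.06 CPM in sib24 (SD, n = 4 each) and was 1.8-fold higher (log2 fold change 0.85, SE 0.12, edgeR adjusted p = 0.013), alone among 32 segmentation clock and tailbud genes. The arrestin-family gene txnipa, which limits glucose uptake in mammals, averaged 222 ± 21.1 CPM in mut24 and 148 ± 15.1 CPM in sib24 (SD, n = 4 each) and was 1.5-fold higher (log2 fold change 0.58, SE 0.09, edgeR adjusted p = 0.023), alone among 33 p53 and Foxo genes. The call of top2a was lost without any 1 library (0.0552 to 0.121). That of cyp26a1 was lost without mut24 replicate 3 or sib24 replicate 1 or 2 (up to 0.0613), and that of txnipa held only without mut24 replicate 4 or sib24 replicate 2 or 3 (otherwise up to 0.0888). The 30 lists with no called member held 828 tested entries, of which 108 had an unadjusted p under 0.05, beside 3185 of all 22136 genes tested. These lists included neurons, neural progenitors, heart, blood, vessels, notochord, myeloid cells and ribosomal proteins.

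The share of genes called was higher on the chromosomes of the targeted genes, a difference that was not tested. Chromosomes and gene order were taken from RefSeq assembly GRCz12tu, not the GRCz11 build of the counts, and placed 80.4% of tested and 91.4% of called genes. On chromosome 12, which carries lipf, 19 of 646 tested genes were called (2.94%), 5 higher and 14 lower. Beside lipf they include tefa of the clock list, pvalb2 and ldb3b of the muscle list, gch2, top2a, cyp26a1 and p4ha1a. On chromosome 25, which carries pla2g15, 9 of 553 were called (1.63%), 6 higher and 3 lower. Among them is fads2 of the fatty acid synthesis list. On all other chromosomes 89 of 16600 were called (0.536%), the highest share of a single one being 1.05% on chromosome 20.

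The 3 named genes with the lowest log2 fold changes, taco1, lipf and pgap3, lie on chromosome 12. The gene taco1, which in humans encodes a translational activator of a mitochondrial cytochrome c oxidase subunit, had 0, 4, 0 and 1 reads in mut24 against 376, 246, 408 and 253 reads in sib24. It was nearly undetected in mut24 and moderate in all sib24 libraries, and the fitted log2 fold change of -7.93 (SE 0.52, edgeR adjusted p = 0.00027) rests on 5 mut24 reads. The gene pgap3, which in mammals remodels the lipid part of protein anchors, had 2.23, 2.23, 1.79 and 1.36 CPM in mut24 against 11.2, 11.6, 18.8 and 10.3 CPM in sib24. No mut24 library exceeded 2.23 CPM and no sib24 library was below 10.3 CPM, and pgap3 was 6.83-fold lower (log2 fold change -2.77, SE 0.24, edgeR adjusted p = 0.00103). The thyroid hormone binding protein gene crym averaged 0.935 ± 0.288 CPM in mut24 and 2.72 ± 0.765 CPM in sib24 (SD, n = 4 each) and was 2.9-fold lower (log2 fold change -1.54, SE 0.29, edgeR adjusted p = 0.0447). The gene cabcoco1 averaged 0.469 ± 0.107 CPM in mut24 and 1.44 ± 0.247 CPM in sib24 (SD, n = 4 each) and was 3.04-fold lower (log2 fold change -1.60, SE 0.29, edgeR adjusted p = 0.0393). In the same stretch the membrane repair gene myof had 41.8, 29.7, 31.1 and 32.6 CPM in mut24 against 9.93, 15.7, 9.73 and 13.3 CPM in sib24. All mut24 libraries were at least 29.7 CPM and all sib24 at most 15.7 CPM, and myof was 2.78-fold higher (log2 fold change 1.48, SE 0.17, edgeR adjusted p = 0.0047). Over the stretch from 153 to 81 coding genes before lipf, bounded by cabcoco1 and paqr4b and chosen after the values were seen, 11 of 60 tested genes were called (18.3%), 8 lower and 3 higher. Genes cyp26a1, p4ha1a and top2a lie in it, 146, 131 and 101 coding genes from lipf, whereas gch2 and ldb3b lie 154 and 171 coding genes away on the other side of lipf.

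Nearest to lipf in gene order were the called genes pvalb2, 15 coding genes away, tefa, 58 away, slc16a8, 61 away, and paqr4b, 81 away. The monocarboxylate transporter gene slc16a8 had 12.8, 14.3, 14.3 and 14.8 CPM in mut24 against 5.34, 5.9, 3.95 and 6.29 CPM in sib24. Its groups were far apart, and it was 2.62-fold higher (log2 fold change 1.39, SE 0.15, edgeR adjusted p = 0.00378). The membrane receptor family gene paqr4b averaged 4.74 ± 0.575 CPM in mut24 and 9.63 ± 0.712 CPM in sib24 (SD, n = 4 each) and was 2.03-fold lower (log2 fold change -1.02, SE 0.13, edgeR adjusted p = 0.0087). The direct neighbours ankrd22 and rnls of lipf were not called. Nearest to pla2g15 were tead1a, 43 coding genes away, setd6, 66 away, cep290, 87 away, and furinb, 88 away. The lysine methyltransferase gene setd6 had 22, 25.8, 22.5 and 25.4 CPM in mut24 against 7.76, 13.7, 8.77 and 7.53 CPM in sib24. Replicate 2 of sib24 was the closest to mut24, and setd6 was 2.53-fold higher (log2 fold change 1.34, SE 0.18, edgeR adjusted p = 0.0112). The Hippo pathway transcription factor gene tead1a averaged 116 ± 8.67 CPM in mut24 and 76.6 ± 7.93 CPM in sib24 (SD, n = 4 each) and was 1.51-fold higher (log2 fold change 0.60, SE 0.08, edgeR adjusted p = 0.015). The ciliary gene cep290 averaged 45.1 ± 3.25 CPM in mut24 and 32.4 ± 2.4 CPM in sib24 (SD, n = 4 each) and was 1.39-fold higher (log2 fold change 0.48, SE 0.08, edgeR adjusted p = 0.0327). The proprotein convertase gene furinb averaged 6.78 ± 0.51 CPM in mut24 and 10.9 ± 1.03 CPM in sib24 (SD, n = 4 each) and was 1.61-fold lower (log2 fold change -0.68, SE 0.12, edgeR adjusted p = 0.0379). Without strand information and with near-identical copies in the genome, values of genes that overlap others or have close paralogs are uncertain.

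Among these, taco1, pgap3, myof, slc16a8, paqr4b, pvalb2 and tefa were called whichever library was left out. Without the 2 libraries per group lowest in yolk genes taco1 and pgap3 kept the call, and myof, slc16a8, paqr4b, pvalb2 and tefa lost it. The call of setd6 was lost without mut24 replicate 2 (adjusted p = 0.059), and that of tead1a without mut24 replicate 2 or 3 or sib24 replicate 1 or 4 (up to 0.0888). That of cep290 held only without mut24 replicate 1 or sib24 replicate 2 or 3 (otherwise up to 0.134). Calls of crym (0.0552 to 0.148), cabcoco1 (0.0501 to 0.142) and furinb (0.051 to 0.13) were lost without any 1 library.

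**Figure D4:**
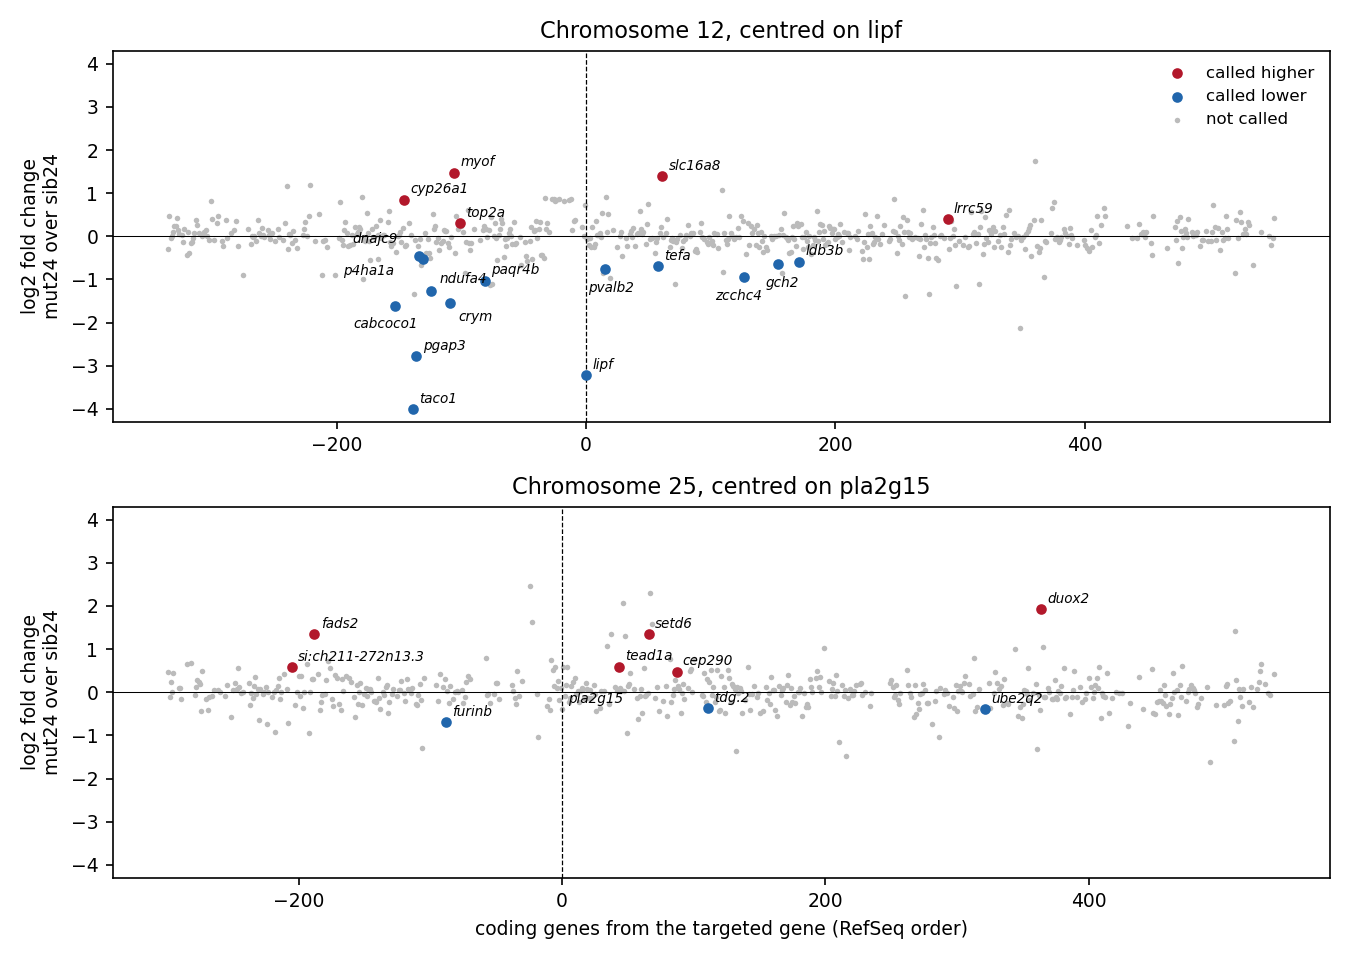
Log2 fold change (mut24 over sib24) of tested genes along chromosomes 12 and 25, in number of coding genes from lipf and from pla2g15 (dashed lines); red points were called higher, blue points lower, and values beyond 4 are drawn at 4. Most falls of chromosome 12 lie left of lipf, between paqr4b and cabcoco1, among genes near 0.

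Other large increases were those of duox2 and rgl3a. The dual oxidase gene duox2, on chromosome 25 but 364 coding genes from pla2g15, makes hydrogen peroxide at cell surfaces and had 7.99, 6.73, 4.07 and 5.09 CPM in mut24 against 1.12, 1.98, 2.42 and 0.773 CPM in sib24. Groups were apart but each spread widely, and duox2 was 3.78-fold higher (log2 fold change 1.92, SE 0.35, edgeR adjusted p = 0.0393). The Ral exchange factor gene rgl3a on chromosome 6 averaged 5.32 ± 0.632 CPM in mut24 and 2.21 ± 0.701 CPM in sib24 (SD, n = 4 each) and was 2.41-fold higher (log2 fold change 1.27, SE 0.23, edgeR adjusted p = 0.0415). Calls of duox2 and rgl3a held only without sib24 replicate 3 (otherwise adjusted p up to 0.142 and 0.142).

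The 48 hpf libraries, fitted separately, showed which of these differences were also present a day later. At 48 hpf 1193 of 23306 genes were called (5.12%). Of the 128 genes called at 24 hpf, 126 were tested there and 98 had the same sign. In total 33 were called at both ages, 30 of them in the same direction, which is 23.4% of the 24 hpf list and 2.51% of the 48 hpf list. The falls of lipf, taco1 and pgap3 were present at both ages, with 48 hpf log2 fold changes of -3.20 (SE 0.21, edgeR adjusted p = 5.93e-06), -3.70 (SE 0.90, edgeR adjusted p = 0.035) and -2.30 (SE 0.40, edgeR adjusted p = 0.00767). The increases of myof and slc16a8 were 1.23 (SE 0.21, edgeR adjusted p = 0.0061) and 1.60 (SE 0.19, edgeR adjusted p = 0.000497) at 48 hpf. Opposite directions were called for txnipa, si:ch211-57n23.4 and mhc1zca, the last 2 named after their values were seen.

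A difference between the ages was tested as an interaction in a fit of all 16 libraries, and 244 of 24300 genes were called (1%), 23 of them among the 128. The lipid genes srebf1 and fads2 had larger increases at 48 hpf, at 1.98 (SE 0.12, edgeR adjusted p = 3.48e-06) and 3.16 (SE 0.22, edgeR adjusted p = 7.46e-06), and the interaction was 1.27 and 1.77 (edgeR adjusted p = 0.000836 and 0.0134). The fall of pdk4 was deeper at 48 hpf, at -1.62 (SE 0.11, edgeR adjusted p = 7.46e-06), with an interaction of -0.82 (edgeR adjusted p = 0.0413). Conversely hsp90aa1.2 stood at -0.23 (SE 0.22, edgeR adjusted p = 0.59) at 48 hpf, with an interaction of -1.65 (edgeR adjusted p = 0.0101), and krt5 at -0.01 (SE 0.08, edgeR adjusted p = 0.97), with -0.93 (edgeR adjusted p = 0.0232). The clock gene per2 stood at -0.13 (SE 0.49, edgeR adjusted p = 0.913) at 48 hpf, but its interaction did not pass (1.35, edgeR adjusted p = 0.279), and that of tefa did (0.96, edgeR adjusted p = 0.0214). The count of 244 ranged from 83 to 339 with 1 library left out. It was 122, 130 and 129 without sib24 replicates 1, 2 and 4, and 125, 116 and 118 without mut24 replicates 1, 2 and 3. It was 83, 128 and 144 without sib48 replicates 2, 3 and 4, and 152 without mut48 replicate 2.

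**Figure D5:**
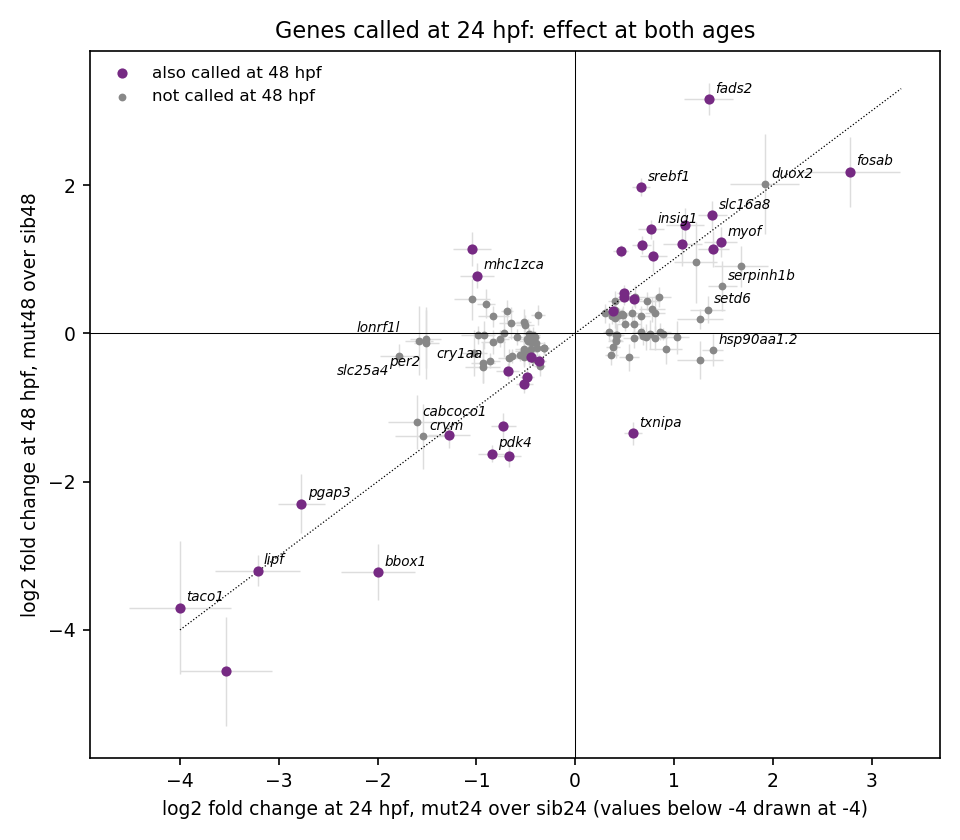
Log2 fold change at 48 hpf (mut48 over sib48, vertical) against that at 24 hpf (mut24 over sib24, horizontal) for genes called at 24 hpf; each point is 1 gene, bars are SE, purple points were called at both ages, and the dotted line marks equal change. Genes lipf, taco1 and pgap3 are lower and fosab, slc16a8 and myof higher at both ages, fads2 and srebf1 lie above the line, and txnipa changes sign.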

How the data were processed

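RNA of zebrafish embryos, with the tissue labelled "body", was read as counts per gene in 4 mut24 and 4 sib24 libraries. The deposited file held whole-number counts of 36109 genes, neither normalised nor pooled by the authors. Per the labels, TRIzol was used for extraction and the VAHTS Universal V8 kit for library preparation. Per the submitters' processing notes, the tools were STAR 2.7.10b, featureCounts 2.0.6, Trim Galore 0.6.10 and FastQC 0.12.1, and the build was GRCz11. Annotation, strand setting and treatment of multimapping reads: not given in the sources used here. Reads carry no molecular identifiers, so the spread between libraries is the error used.

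The 8 libraries were fitted alone. Filtering by filterByExpr left 22136 genes and removed 13973. Counts were scaled by TMM and tested two-sided with edgeR 4.0.16 (R 4.3.3, quasi-likelihood F-test), with Benjamini-Hochberg adjustment over all genes tested and calls at 0.05. The SE of a log2 fold change is its size over the square root of F. The procedure was also run on simulated counts, with libraries drawn independently and the spread estimated from these 8 libraries. The simulation held no yolk difference between libraries, so it is no check of the calls given here. The interaction with age used all 16 libraries. The yolk syncytial layer score is the mean log2 CPM (prior count 2) of its 22 genes.

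The 48 gene lists (1631 entries, 1592 matched) and the groups compared were chosen with earlier results of these data known, so counts over a list are descriptions. Named genes were lipf and pla2g15. To these were added, among called genes with a symbol, non-overlapping groups and a higher group mean of 1 CPM or more, the 10 largest and 10 smallest log2 fold changes and the 6 smallest p, the 2 called members of each list with the smallest p, and the 4 called genes nearest to lipf and to pla2g15. Other genes were named after their values were seen. Symbols were matched to RefSeq GRCz12tu for names and gene order only.

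The alternatives comprised other scalings (upper-quartile, RLE), filters (none, or 1 CPM in 4 libraries), a minimum log2 fold change of 1, DESeq2 1.42.0, the replicate number as a block, all 16 libraries, the yolk score as a covariate, leaving out the 2 lowest or highest libraries in yolk genes per group, and leaving out each library. Each library was counted as 1 sample. Libraries of a group differed by more than counting noise in all 12 pairs (chi-square per gene 12.6 to 46.9). That does not show that they came from separate embryos or clutches.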

Additional observations from a re-analysis of the deposited data

Results flagged for a closer look

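In groups of 4, a library standing far from the others was sought in 96 groups of values, and 4 were found; chance alone flags about 1 in 20 groups. For hsp90aa1.2, sib24 replicate 1 stood at 47.6 CPM, above 41.5 to 42.1 CPM in the other sib24 libraries and below the lowest mut24 library. For pgap3, sib24 replicate 3 stood at 18.8 CPM, above the other 3. For aldocb, mut24 replicate 2 stood at 34.7 CPM, below the other 3. The share of counts in the 100 most abundant genes was 22.3% in mut24 replicate 4, the lowest of its group.

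For 9 named genes the genotype effect differed between ages, tested as an interaction over all 16 libraries by edgeR (48 minus 24 hpf, log2). It was 1.77 for fads2 (adjusted p = 0.0134), 1.43 for slc25a4 (0.0126), 1.27 for srebf1 (0.000836) and 0.96 for tefa (0.0214). It was -1.97 for txnipa (4.75e-05), -1.65 for hsp90aa1.2 (0.0101), -0.93 for krt5 (0.0232), -0.91 for krt99 (0.0412) and -0.82 for pdk4 (0.0413).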

How the results depend on the processing

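The counts of called genes moved with the fit. Directions stayed the same for all 128 genes under every alternative listed here, but their non-overlapping groups left little room for a reversal. Beside 64 higher and 64 lower, RLE scaling gave 64 and 65, upper-quartile scaling 60 and 64, no filter 74 and 74, and the stricter filter 71 and 78. A minimum log2 fold change of 1 gave 17 and 15, DESeq2 450 and 338, and the fit of all 16 libraries 95 and 107. The yolk score as a covariate gave 358 and 165, leaving out the 2 libraries per group lowest in yolk genes 2 and 7, and leaving out the 2 highest 385 and 188. In that last fit both mut24 libraries were lower in yolk genes than both sib24 libraries. There 38 of 75 ribosomal protein genes were lower, where 0 were called otherwise in these fits. The cause was not tested. Leaving out 1 library gave 10 to 95 higher and 15 to 60 lower genes. For the interaction with age, 244 became 82 with a minimum of 1, 911 with DESeq2, and 83 to 339 with 1 library left out. Among 855 values of named genes under alternatives, 577 kept their side of the threshold, 277 lost the call and 1 reversed. That was pla2g15, at 0.0611 without sib24 replicate 3, and its other values with 1 library left out reached -0.975.

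The labels do not say whether the replicate numbers pair the samples, and the correlations did not decide it. Correlations of deviations between libraries of the same number ran from -0.14 to 0.26, 2 of 4 were over 0.1, and 2 of 4 libraries correlated best with their own number. With the replicate number as a block, 16 genes were higher and 14 lower, 28 of them among the 128, and 97 genes had an interaction.

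With 4 libraries a group, differences in yolk, lipoprotein and plasma protein genes smaller than their spread were not detectable. The RNA of a bulk sample averages the tissues it holds. Gene lengths were not used, so levels of different genes are not compared.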

Other observations

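Of the 128 called genes, 89 were on no list, and those named here were chosen after their values were seen. Of these, rbm4.2 was called whichever library was left out, and each of the others lost its call in at least 1 such fit. RNA-binding and transcription-related genes were called in both directions. The splicing regulator gene rbm4.2 had 195, 189, 160.3 and 168 CPM in mut24 against 120.0, 117, 113 and 123 CPM in sib24. The groups were far apart, and it was 1.51-fold higher (log2 fold change 0.59, SE 0.07, edgeR adjusted p = 0.00763). Also higher by edgeR were the RNA-binding protein genes rbm6, 1.34-fold (adjusted p = 0.03), rbm12b, 1.33-fold (adjusted p = 0.0385), and safb, 1.33-fold (adjusted p = 0.0373). The splicing factor gene srsf5b was 1.36-fold (adjusted p = 0.0385) lower, and dgcr8, which encodes the partner of Drosha in microRNA processing, 1.32-fold (adjusted p = 0.0385) lower by edgeR. The ribosomal DNA transcription factor genes ubtf and ubtfl were 1.37-fold (adjusted p = 0.0385) and 1.35-fold (adjusted p = 0.0324) lower by edgeR. The gene nrf1, a regulator of mitochondrial gene expression, was 1.4-fold (adjusted p = 0.0385) lower by edgeR.

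Both muscle-type glycogen phosphorylase genes, which release glucose units from glycogen, were lower. The gene pygma had 79.3, 86, 90.1 and 83.8 CPM in mut24 against 139, 128, 107 and 109.9 CPM in sib24, and pygmb had 51.8, 49.7, 52.2 and 51.5 CPM in mut24 against 78.9, 75.5, 68 and 64.7 CPM in sib24. Neither pair of groups overlapped, and the genes were 1.43-fold and 1.4-fold lower (edgeR adjusted p = 0.0373 and 0.0195). The pyruvate dehydrogenase phosphatase gene pdp2, which opposes Pdk4, was 1.38-fold (adjusted p = 0.0385) lower by edgeR. Among lipid genes on no list, aacs, a cytosolic acetoacetyl-CoA synthetase gene, was 1.6-fold (adjusted p = 0.0193) higher and acsbg2, an acyl-CoA synthetase gene, 1.38-fold (adjusted p = 0.0368) higher by edgeR. Both were also higher at 48 hpf, with log2 fold changes of 1.19 and 1.11 there. The transcription factor gene klf5a had 34.5, 36.1, 39.3 and 38.1 CPM in mut24 against 15.9, 23.5, 22.4 and 19.8 CPM in sib24, with every mut24 library above every sib24 library, and was 1.82-fold higher (log2 fold change 0.86, SE 0.11, edgeR adjusted p = 0.0112). The Nodal inhibitor gene lft1 was 1.77-fold (adjusted p = 0.0489) higher and the NADPH oxidase organiser gene noxo1a 1.89-fold (adjusted p = 0.0385) higher by edgeR. The unnamed transcript XLOC_005179 had 0.257, 0.734, 0.347 and 0.117 CPM in mut24 against 5.95, 2.73, 3.63 and 4.41 CPM in sib24 and was 11.6-fold lower (log2 fold change -3.53, SE 0.46, edgeR adjusted p = 0.0108).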
